A study of Mus musculus with 192 samples.

Results

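The miR-34 and miR-449 families were followed in small RNA libraries of mouse cortex, heart and lungs, through the 7 mature miRNAs mmu-miR-34a-5p, mmu-miR-34b-5p, mmu-miR-34b-3p, mmu-miR-34c-5p, mmu-miR-34c-3p, mmu-miR-449a-5p and mmu-miR-449c-5p. They were taken by name, without regard to their values, and make up 7 of the 1960 mature miRNAs in each table. The species prefix is left off below. Adult mice of the hairless, immunocompetent, outbred stock SKH-1 Elite received fentanyl citrate in Ringer's solution under the skin. The doses were 62 mg/kg (HNLD, the highest non-lethal dose), 110 mg/kg (LD10) and 135 mg/kg (LD50), and sham mice served as the baseline. The labels call the sham mice Control and give the HNLD mice as LOEL at 62 mg/kg, the dose that the treatment protocol names HNLD. Tissues were taken at 0h, which is 40 min after the injection, and at 6h, 24h and 7d, from 4 mice per dose and time. At LD50 the later groups hold mice that survived the dose. Of 192 samples 190 libraries were used, 63 of cortex, 64 of heart and 63 of lungs, and 3 mice stand for 4 in 2 groups, sham cortex at 24h and LD50 lungs at 7d, whose remaining libraries were not analysed here.

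miR-34a is transcribed from a locus of its own and is a well known direct target of p53, the transcription factor that responds to DNA damage and other stress. miR-34b and miR-34c come from 1 shared primary transcript, and miR-449a, miR-449b and miR-449c from an intron of Cdc20b, which lies beside other genes of the multiciliated cell program. Multiciliated cells line the airways, the ependyma and choroid plexus of the brain and the ducts of the reproductive tract, and in mice the miR-34b/c and miR-449 loci together are needed for their motile cilia to form. Through a shared seed, the stretch of a miRNA that pairs with its targets, the 5p arms of both families can bind the same sites in mRNAs.

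The mature sequences show which members share a seed, and they are printed 5′ to 3′ with the seed (bases 2 to 8) in capitals. RefSeq entries on GRCm38.p6 were found for 6 of the 7 members, and miR-34c-5p is named only.
mmu-miR-34a-5p: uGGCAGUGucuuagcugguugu
mmu-miR-34b-5p: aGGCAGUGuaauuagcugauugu
mmu-miR-449a-5p: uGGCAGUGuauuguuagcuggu
mmu-miR-449c-5p: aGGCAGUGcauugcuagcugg
mmu-miR-34b-3p: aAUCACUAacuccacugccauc
mmu-miR-34c-3p: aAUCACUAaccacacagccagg

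The 4 printed 5p arms have 1 seed, which no other mature miRNA among the 1738 in the RefSeq table carries. The 3p arms of miR-34b and miR-34c share another seed that only these 2 carry in that table. As miR-34c-5p was not found there, its seed was not compared. The table is incomplete, so a miRNA absent from it may still carry either seed. Aligned from the first base, miR-449a-5p differed from miR-449c-5p at 3 of 21 positions and from miR-34a-5p at 7 of 22, while miR-34a-5p and miR-34b-5p differed at 11 of 22. miR-34b-3p and miR-34c-3p differed at 5 of 22 positions. All of these differences lie outside the seeds.

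On GRCm38.p6 the mature miR-34a-5p lies at chr4:150068473-150068494 on the plus strand. miR-34b-5p lies at chr9:51103610-51103632 and miR-34b-3p at chr9:51103574-51103595, both on the minus strand, as does miR-34c-3p at chr9:51103044-51103065. miR-449a-5p lies at chr13:113037549-113037570 and miR-449c-5p at chr13:113036008-113036028, on the plus strand. On mm9, the build the authors aligned to, the hairpin genes Mir34c and Mir34b are neighbours on 1 strand, and no other annotated gene overlaps them or Mir34a. Mir449c and Mir449a are 1442 bases apart, and both lie in an intron of Cdc20b on the same strand.

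Values are reads per miRNA scaled by TMM, a normalization for library size and composition, and each tissue was scaled on its own, so levels are set side by side between tissues as a description only. Libraries held 1775669 to 8381425 reads in cortex (median 4498628), 215163 to 5355085 in heart (median 2036132) and 196853 to 6540900 in lungs (median 3863362). A single cortex read was worth 0.119 to 0.48, while for heart the worth of a read ran to 3.961 and for lungs to 4.146. Reads carry no molecular identifiers, so counts of reads are not counts of molecules. In tissue RNA, fewer cells of a type and less of a miRNA per cell cannot be told apart.

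Several libraries went against their labels, and their values touch the results below. The libraries labelled cortex of the sham mice FP96 (0h) and FP85 (6h) held summed values of 496 and 678 for 5 neuronal miRNAs, against 106149 to 169636 in 60 other cortex libraries, and 11612 and 13761 for 5 epithelial miRNAs (the miR-200 family), against 85.9 to 8126. Their miR-124-3p, a miRNA of neurons, was at 4.83 and 13.0. The cortex library of FP24 (HNLD, 7d) held 52713 for the neuronal list and 62491 for miR-10b-5p, which stood at 177 to 544 in the 60 others. In the mouse FP38 (HNLD, 6h) the library labelled heart held a value of 4207 for 4 muscle miRNAs, against 53624 to 160212 in the other hearts, and 9189 for the epithelial list. The library labelled lungs of FP38 held 158682 for the muscle list, against 1997 to 13395 in the other lungs, and 987 for the epithelial list. In lungs, the mice FP91 to FP96 and FPB2, 6 sham mice and 1 LD10 mouse, held 14865 to 19686 for the epithelial list, against 6021 to 9916 in the other 55 without FP38. All 4 sham lungs at 24h and 2 of the 4 at 0h are from this set of mouse numbers, so at 24h fentanyl and the set cannot be told apart in lungs. Mouse numbers form 3 sets, drawn up after the values were seen: FP16 to FP58 hold the HNLD mice, all but 1 LD10 mouse and 2 LD50 mice, FP59 to FP88 hold 14 LD50 and 10 sham mice, and FP91 to FP96 with FPB2 are the last. The heart of FP92, a sham library of 245799 reads, is left out wherever hearts are given without those that stood apart.

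In every tissue miR-34c-5p was the most abundant member by median value. In cortex it had a median of 2914 (range 1368 to 9970) and took a median of 89.8% of the summed value of the 7 members. miR-34a-5p followed at 164 (76.3 to 1135), then miR-34b-5p at 99.9, miR-34b-3p at 40.4 and miR-34c-3p at 17.9. miR-449a-5p was low in cortex at a median of 7.87, and miR-449c-5p had at least 1 read in 44 of 63 libraries, with a median of 1 read. The range of miR-449a-5p ran from 2.98 to 393, and its highest value was in FP85.

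Heart held far less of the ciliated-cell members, on its own scale. miR-34c-5p had a median of 134 (range 46.6 to 7558) and 74.3% of the members' summed value. miR-34a-5p had a median of 33.1, with values from 19.0 to 64.8. miR-34b-5p stood at 5.89, miR-34b-3p at 3.35, miR-449a-5p at 1.76 and miR-34c-3p at 0.884, which are a few reads per library. miR-449c-5p was at 0 in 45 of 64 hearts. The highest miR-34c-5p value, 7558, was that of the library labelled heart of FP38.

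In lungs miR-34c-5p reached a median of 7169 (range 553 to 10407) and 90.1% of the summed value. miR-34b-5p followed at 356, miR-449a-5p at 137 (13.2 to 886), miR-34b-3p at 127, miR-34a-5p at 84.8 (lowest 37.3) and miR-34c-3p at 61.4. miR-449a-5p and miR-34b-3p are neighbours in this order, and the values of miR-34b-3p (24.8 to 233) lie within the range of miR-449a-5p. miR-449c-5p had a median of 2.33 and at least 1 read in 60 of 63 libraries. The library labelled lungs of FP38 had the lowest value of miR-34c-5p, at 553. Only 6 members in cortex and lungs (not miR-449c-5p) and 3 in heart (miR-34a-5p, miR-34b-5p and miR-34c-5p) passed the filter, for which 4 or more libraries of the tissue had to reach a value of 10, and could be tested.

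**Figure D1:**
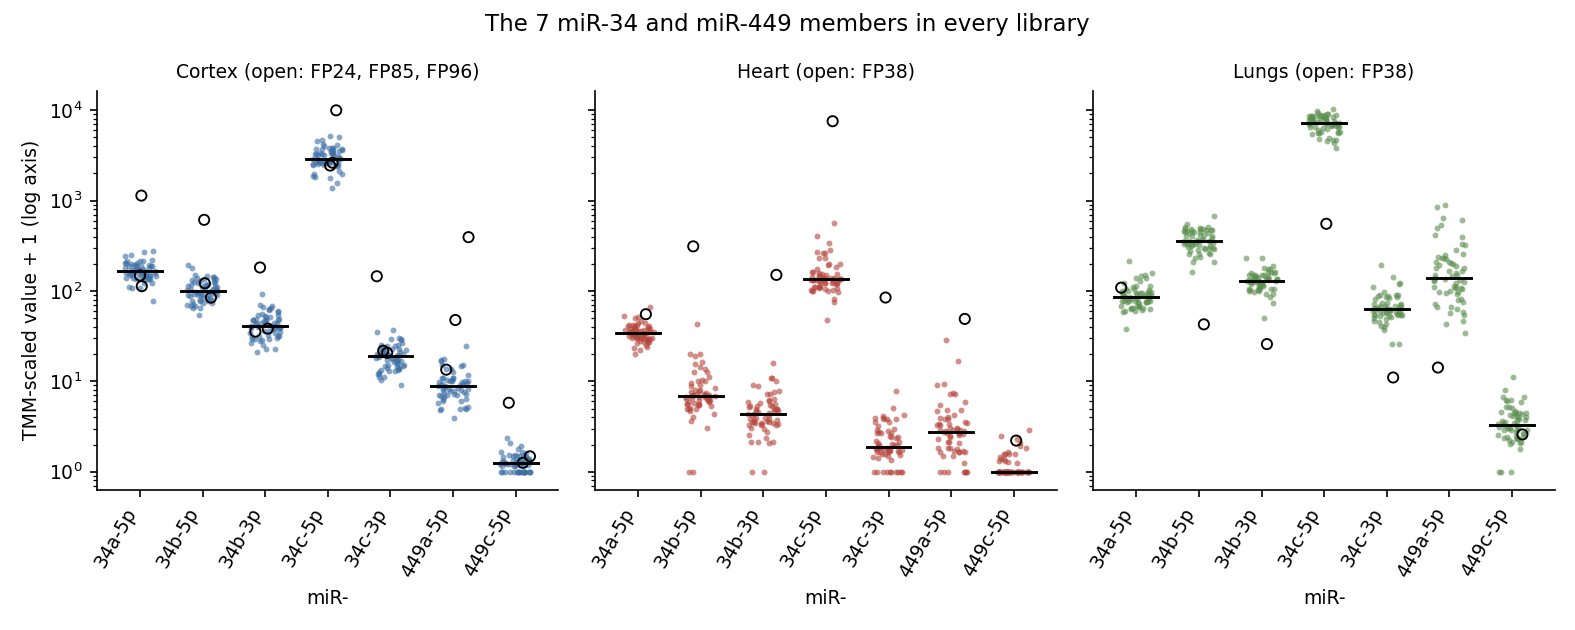
The value of each of the 7 members in every library of cortex, heart and lungs, as the TMM-scaled value plus 1 on a log axis; horizontal lines are medians and open circles the named libraries that went against their labels or stood apart. miR-34c-5p is the highest member in each tissue, with medians of 2914, 134 and 7169, and FP38 lies among lung values in the heart panel and among heart values in the lung panel for miR-34c-5p.

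The balance between miR-34a-5p and the ciliated-cell members differed by tissue. p53 activity was not measured, and no ratio here stands for it. The ratio of miR-34c-5p to miR-34a-5p within a library, which does not depend on the scaling, had a median of 17.8 in cortex (2.31 to 67.5), 4.16 in heart (1.25 to 139) and 90.8 in lungs (5.13 to 174). Within a mouse it was lower in cortex than in lungs in 61 of 62 mice and higher in lungs than in heart in 62 of 63, and FP38 was the exception in both. It was higher in cortex than in heart in 60 of 63 mice, with FP30, FP32 and FP38 as the exceptions. Ligation and amplification differ between miRNA sequences, so a ratio of values is not a ratio of molecules, while its order between tissues uses the same 2 sequences throughout.

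The miR-449 locus held another balance. The ratio of miR-34c-5p to miR-449a-5p had a median of 389 in cortex, 72.7 in heart and 53.6 in lungs, and it was higher in cortex than in lungs in 61 of 62 mice, all but FP85. Where a denominator was at 0, the value of 1 read took its place. The heart ratios rest on a median of 4 reads of miR-449a-5p. miR-34a-5p exceeded miR-449a-5p by a median of 22.6 times in cortex and 17.0 times in heart, against 0.596 times in lungs. Without FP38 and the libraries that stood apart, the lung median of miR-34a-5p over miR-449a-5p was 0.635 (0.24 to 1.86, n = 55).

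Within the miR-34b/c transcript the proportions were closer between tissues. miR-34c-5p exceeded miR-34b-5p by a median of 31.0 times in cortex, 22.7 in heart and 18.8 in lungs. Any reads shared between them through mismatches in alignment would alter this ratio, and were not measured. The 5p arm exceeded the 3p arm by a median of 167, 141 and 114 times for miR-34c and of 2.43, 1.88 and 2.79 times for miR-34b in these tissues. The opposite arms and miR-449b were near the limit of detection. miR-34a-3p had a median of 1.5 in cortex, 0 in heart and 0.682 in lungs, and miR-449a-3p, miR-449b and miR-449c-3p had at most 12 reads in any library. None of these 4 passed the filter.

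**Figure D2:**
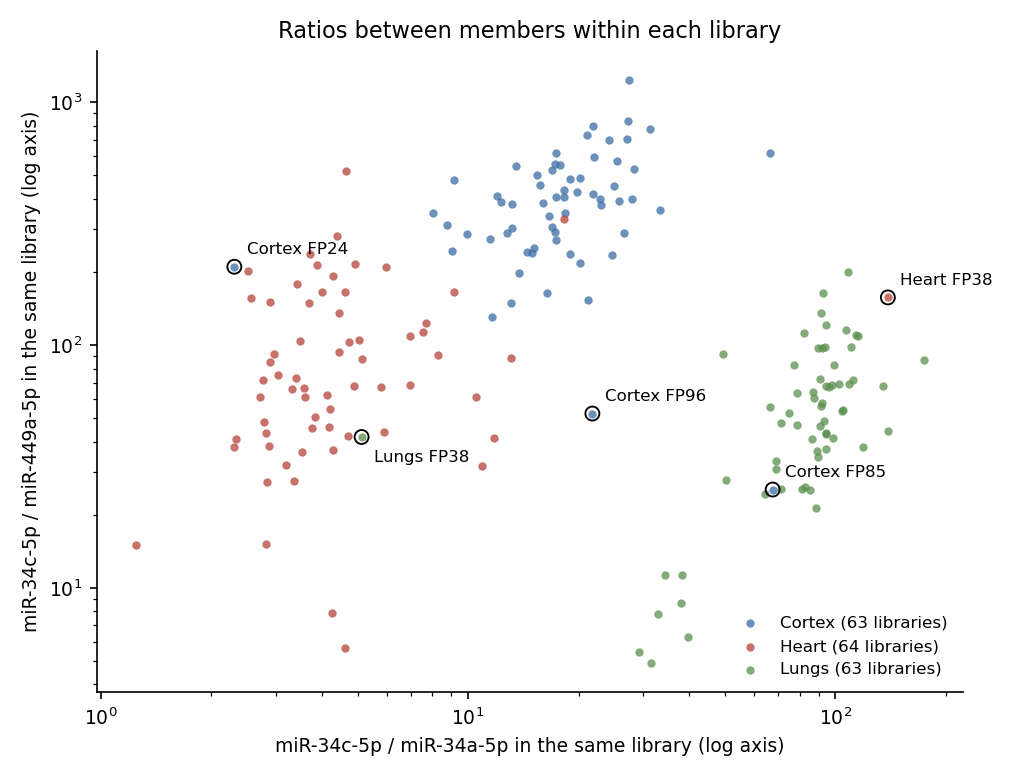
Each point is a library, with the ratio of miR-34c-5p to miR-34a-5p on the x axis and of miR-34c-5p to miR-449a-5p on the y axis, both on log axes, coloured by the tissue of the label. Cortex, heart and lungs have median x ratios of 17.8, 4.16 and 90.8; the library labelled heart of FP38 (139) lies with the lungs, that labelled lungs of FP38 (5.13) with the hearts, that labelled cortex of FP85 (67.5) within the range of the lungs, and the 7 lungs with the lowest y ratios are FP91 to FP96 and FPB2.

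In cortex no member was called at any time when the 3 doses were averaged and set against sham. Calls are an adjusted p under 0.05 from limma over all miRNAs tested in the tissue. The counts were 0 of 6 members tested at 0h, 6h, 24h and 7d, beside 0% of the 482 miRNAs tested at 0h, 0% at 6h, 0% at 24h and 2.49% at 7d. At an unadjusted p under 0.05, 5 of 6 members and 195 of 482 miRNAs passed at 6h, and 0 of 6 members at the other times. edgeR and DESeq2 on the recovered reads each called 5 members at 6h, beside 20.7% of all miRNAs by either, and none at the other times. Over all times 0 members were called (1.66% of all miRNAs), with 2 at an unadjusted p under 0.05 and 3 by edgeR and by DESeq2, which called 22.8% and 19.3% of all miRNAs. The counts were also 0 for the terms of dose (1.04%), time (0%) and dose × time (0%). The median log2 difference of all miRNAs at 6h was 0.23 under TMM and 0.12 under another scaling, RLE.

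miR-34c-5p in cortex at 6h was 1882, 1570, 1957 and 2148 in HNLD mice, 1983, 4181, 2613 and 2705 in LD10 mice and 1368, 2501, 4718 and 5067 in LD50 mice, against 4161, 3738, 9970 and 2899 in sham mice. The HNLD values lie below all 4 sham values, while the LD10 and LD50 values overlap them, and the highest sham value is that of FP85. The share of all miRNAs that separate in this way at HNLD is not given. For the mean of the doses the log2 difference was -0.88 (SE 0.24, adjusted p = 0.0841), and without the 3 cortex libraries that stood apart (FP24, FP85 and FP96) it was -0.51 (adjusted p = 0.999). miR-34c-3p from the other arm ran from 8.07 to 25.7 over the 12 fentanyl libraries, against 15.7, 20.6, 144 and 28.8 in sham mice.

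At HNLD and 6h, where 0.622% of all miRNAs were called, 2 of 6 members were called lower, miR-34c-5p at a log2 difference of -1.29 (SE 0.30, adjusted p = 0.017) and miR-34c-3p at -1.62 (SE 0.39, adjusted p = 0.0189). Without the library labelled cortex of FP85 neither was called, at -0.92 (adjusted p = 0.539) and -0.94 (adjusted p = 0.663), nor without the HNLD mouse FP38, at -1.21 (adjusted p = 0.122) and -1.51 (adjusted p = 0.127). miR-34c-3p was also lost without the HNLD mouse FP49 (-1.58, adjusted p = 0.0811). The miRNAs of the choroid plexus, a ciliated epithelium of the brain, had a summed value of 5018 to 9789 (median 6834) in the HNLD mice and of 878 to 10991 (median 10537) in sham mice at 6h, and the epithelial list had 85.9 to 825 in the HNLD mice and 310 to 13761 in sham mice. The values of 878 and 13761 are both those of the library labelled cortex of FP85. The part of either list in the lower miR-34c values at HNLD was not tested.

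miR-34a-5p was not called in cortex at any time. At 6h it was 144, 179, 148 and 159 in HNLD mice, 247, 190, 143 and 157 in LD10 mice and 138, 144, 151 and 76.3 in LD50 mice, against 167, 189, 148 and 107 in sham mice. The groups overlapped throughout, and the log2 difference of the mean of the doses was 0.02 (SE 0.27). At 7d miR-34a-5p was at 1135 in the HNLD mouse FP24, against 134 to 216 in the other fentanyl libraries at 7d and 149 to 269 in sham. The same library held 9.11 of miR-34a-3p, the other arm of that hairpin, against 0.322 to 3.65 elsewhere in cortex, and 12.5 of miR-449a-5p and 2624 of miR-34c-5p, which lie within the range of the other libraries at 7d.

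miR-449a-5p in cortex was between 3.95 and 12.6 in the 12 fentanyl libraries at 6h, against 9.19, 8.73, 393 and 4.11 in sham mice. At 0h it was between 3.86 and 23.7 in fentanyl libraries, against 8.96, 16.1, 9.87 and 46.7 in sham mice, where the highest is FP96. The log2 difference at 6h was -1.48 (adjusted p = 0.105), and -0.07 without the 3 libraries that stood apart (adjusted p = 0.999). Outside the libraries labelled cortex of FP85 and FP96, miR-449a-5p had a median of 7.69 and at most 23.7 (n = 60, also without FP24).

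The mice FP59 to FP88 hold both LD50 and sham mice at 0h, 6h and 7d, and a comparison among them stays within 1 set of mouse numbers. There 0 of 6 members were called in cortex (0% of all miRNAs, and 0 members at an unadjusted p under 0.05). miR-34c-5p averaged 3427 ± 891 in LD50 mice and 4090 ± 2134 in sham mice (SD, n = 10 each), and miR-34a-5p averaged 148 ± 30.9 and 168 ± 41.7 in the same groups. Without the library labelled cortex of FP85, miR-34c-5p averaged 3436 ± 568 in the 9 other sham mice, and its log2 difference was -0.02 (adjusted p = 0.991), against -0.14 with it (adjusted p = 0.894).

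**Figure D3:**
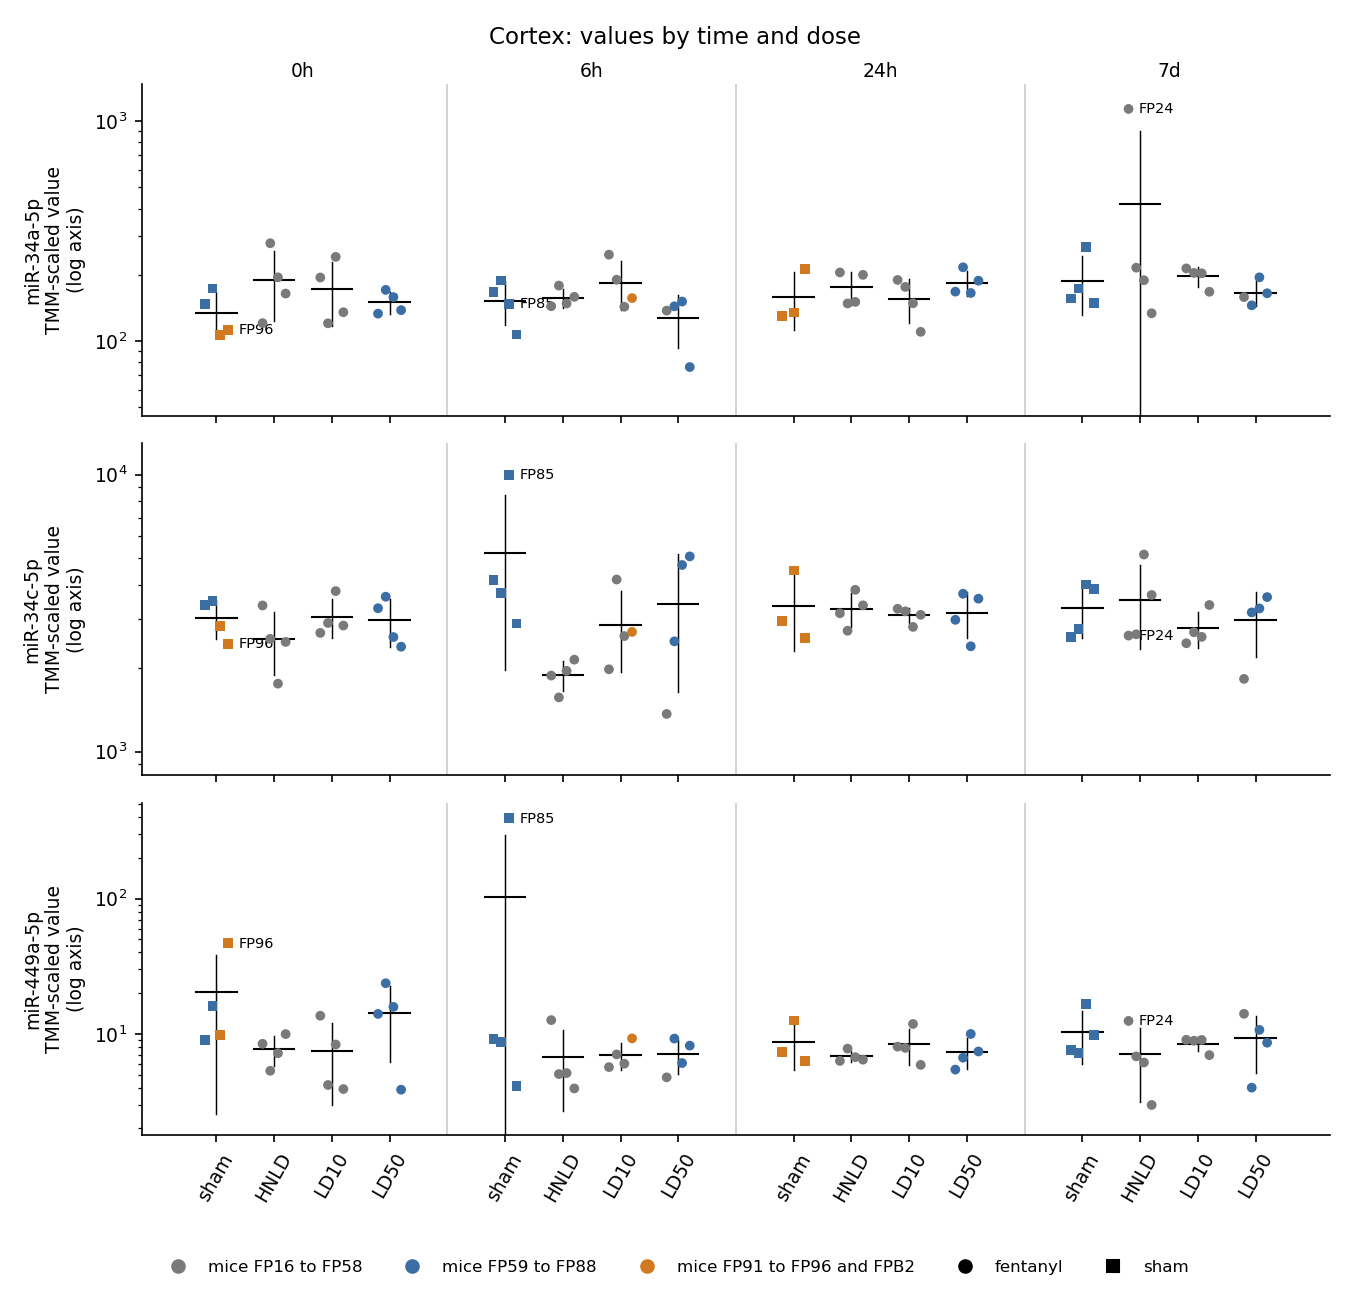
Values of miR-34a-5p, miR-34c-5p and miR-449a-5p in cortex by time and treatment on log axes, with 1 point per mouse (circles fentanyl, squares sham), coloured by set of mouse numbers; horizontal lines are means and vertical lines 1 SD to each side, running to the lower edge where mean minus SD is below it. FP85 is the highest sham point for miR-34c-5p (9970) and miR-449a-5p (393) at 6h, and FP24 is the highest for miR-34a-5p (1135) at 7d.

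In heart 0 of the 3 members tested were called at 0h, 6h, 24h and 7d, beside 0% of the 320 miRNAs at each of these times. The count was also 0 over all times (0%) and for dose (0%), time (0%) and dose × time (0%), and within the mice FP59 to FP88 (0%). At an unadjusted p under 0.05 no member passed at any of the 4 times, and 1 passed for dose, while 7 to 19 of the 320 miRNAs passed at the 4 times. edgeR called 2 members for dose (0.625% of all miRNAs, which is these 2) and 1 for dose × time (3.44%), and neither edgeR nor DESeq2 called a member at any of the 4 times for the mean of the doses. The HNLD hearts in these fits include the library labelled heart of FP38, and edgeR was not run without it.

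At HNLD and 6h, where 7.19% of all miRNAs were called, miR-34c-5p was called higher at a log2 difference of 1.93 (SE 0.57, adjusted p = 0.0258). Its values were 199, 7558, 401 and 126 in HNLD mice, against 155, 132, 140 and 123 in sham mice, and the groups overlap. The value of 7558 is from the library labelled heart of FP38. Without it the log2 difference was 0.65 (adjusted p = 0.42). The call was also lost without the sham heart of FP78 (1.91, adjusted p = 0.0785) or of FP86 (1.88, adjusted p = 0.063). miR-34b-5p was 9.16, 311, 19.3 and 9.43 in the same HNLD hearts, against 10.1, 5.43, 5.94 and 4.00 in sham, and was not called (log2 difference 2.02, adjusted p = 0.0525).

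Hearts with much miR-34c-5p were found at 0h too. The HNLD mice FP30 and FP32 had 569 and 339 and the LD10 mice FP20 and FP21 had 281 and 264, against 100 to 141 in the 4 sham hearts, and the other 8 fentanyl hearts had 75.0 to 154. miR-34b-5p was high in the same 4 hearts, at 42.6, 15.5, 14.5 and 11.7, against 2.02 to 6.32 in sham. miR-34a-5p in these 4 hearts was 31.1, 28.6, 30.6 and 24.2, against 21.3 to 39.3 in sham, so it stayed within the range of the sham hearts. For the mean of the doses at 0h miR-34c-5p differed by 0.51 on the log2 scale (SE 0.47, adjusted p = 0.975).

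In lungs at 24h, 4 of 6 members were called for fentanyl, averaged over doses, against sham, 2 higher and 2 lower, while 46.1% of the 371 miRNAs tested were called in that comparison. Those called higher were miR-34c-5p (log2 difference 0.81, SE 0.29, adjusted p = 0.0199) and miR-34b-5p (0.69, SE 0.29, adjusted p = 0.0451). Those called lower were miR-449a-5p (-2.28, SE 0.57, adjusted p = 0.00114) and miR-34a-5p (-0.57, SE 0.24, adjusted p = 0.0445). Here miR-449a-5p went the other way from the 5p arms of miR-34b and miR-34c, although both loci are tied to ciliated cells. The 3p arms of that transcript were not called and had negative log2 differences, -0.26 for miR-34b-3p (SE 0.24, adjusted p = 0.373) and -0.12 for miR-34c-3p (SE 0.30, adjusted p = 0.756). The median log2 difference of all miRNAs was 0.20 under TMM and 0.05 under RLE, and relative to it miR-34c-5p was 0.61 and miR-34b-5p 0.50 higher under TMM. Under RLE neither was called (log2 differences 0.65 and 0.54, adjusted p = 0.0501 and 0.101), while miR-449a-5p and miR-34a-5p were (-2.43 and -0.72, adjusted p = 0.00066 and 0.0136). miR-34c-5p was not called without the sham lung of FP93 (0.73, adjusted p = 0.0681), miR-34b-5p was lost without any 1 of 9 lungs of 24h (adjusted p up to 0.131) and miR-34a-5p without any 1 of 10 (up to 0.157). miR-449a-5p kept its call without any 1 library.

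miR-449a-5p in lungs at 24h was 81.2, 145, 106 and 150 in HNLD mice, 70.4, 65.5, 166 and 137 in LD10 mice and 207, 92.2, 113 and 197 in LD50 mice, against 417, 532, 606 and 855 in sham mice. All 12 fentanyl values lie below all 4 sham values. miR-34c-5p was 7935, 8367, 7341 and 8036 in HNLD mice, 6847, 7224, 7977 and 7186 in LD10 mice and 7169, 6293, 10407 and 8682 in LD50 mice, against 4730, 4591, 3784 and 4635 in sham mice. Again the groups do not overlap. The share of all miRNAs whose groups separate in this way is not given, so the separation is not read as a trait of these members. miR-34a-5p averaged 90.3 ± 40.9 in the fentanyl lungs (SD, n = 12, median 78.3, lowest 62.4), against 138, 121, 95.2 and 159 in sham, and there the groups overlap, with 3 of the 12 fentanyl lungs above the lowest sham lung and 1, that of the LD50 mouse FP64, above the highest. In these lungs the epithelial list was at 7828 to 9391 with fentanyl and at 14865 to 19686 in sham, and the red blood cell list at 32065 to 62366 and 21715 to 28320 in the same groups. The fentanyl lungs held 1896514 to 5748516 reads and the sham lungs 642444 to 815001, with no overlap. Their part in the differences was not tested.

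These 4 sham lungs are FP91 to FP94. Across doses and times, miR-449a-5p stood at 417 to 886 (median 606) in the 7 lungs of FP91 to FP96 and FPB2, at 92.2 to 390 (median 157) in the 23 lungs of FP59 to FP88 and at 33.6 to 321 (median 105) in the 32 lungs of FP16 to FP58 without FP38. The LD10 lung of FPB2 at 6h had 634, against 56.2 to 65.6 in the other LD10 lungs of that time. miR-34c-5p was 3784 to 5591 in the same 7 lungs, 6056 to 10407 in those of FP59 to FP88 and 4775 to 9692 in those of FP16 to FP58 without FP38. miR-34a-5p had a median of 138 in the 7 lungs (95.2 to 159), against 80.8 in those of FP59 to FP88 (lowest 62.4) and 79.1 in those of FP16 to FP58 without FP38 (37.3 to 112). At 24h no sham lung is outside this set, so no value within a set could be had there.

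Each dose at 24h gave the same call for miR-449a-5p in lungs. It was lower by a log2 difference of -2.30 at HNLD (adjusted p = 0.00751), -2.51 at LD10 (adjusted p = 0.00464) and -2.01 at LD50 (adjusted p = 0.0229), and the 3 comparisons share the 4 sham lungs. It was the 1 member called at HNLD (36.7% of all miRNAs) and at LD10 (31.5%), and 1 of 2 at LD50 (36.9%), where miR-34b-5p was called higher (0.88, adjusted p = 0.047). At LD50 the call of miR-449a-5p was lost without the LD50 lung of FP63 or FP64 or the sham lung of FP94 (-1.80 to -1.90, adjusted p = 0.0547 to 0.066), and that of miR-34b-5p without any 1 of 8 lungs of 24h (FP57, FP62, FP64, FP66 and FP91 to FP94, adjusted p up to 0.143). At 0h, 0 of 6 members were called (13.7% of all miRNAs) and 2 passed an unadjusted p under 0.05, as did 100 of the 371 miRNAs. edgeR and DESeq2 each called 1 member at 0h, beside 15.4% and 15.9% of all miRNAs. There miR-449a-5p was 41.7 to 390 in the fentanyl lungs, against 108, 132, 886 and 494 in sham, and the values of 886 and 494 are FP95 and FP96. Its log2 difference was -1.21 (SE 0.57, adjusted p = 0.168), and 0.02 without the lungs of FP91 to FP96 and FPB2.

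At 6h and 7d the members did not pass the test in lungs. The counts were 0 of 6 at 6h (0% of all miRNAs, and 1 member at an unadjusted p under 0.05) and 0 of 6 at 7d (0%, and 0 members unadjusted), and edgeR and DESeq2 called no member for the mean of the doses at either time. At HNLD and 6h, 0.27% of all miRNAs and 0 members were called, and miR-34c-5p was 4775, 553, 7845 and 8072 in HNLD mice, against 8583, 7819, 6905 and 8578 in sham. The low value is that of the library labelled lungs of FP38. The log2 difference was -1.14 with it (adjusted p = 0.0759) and -0.24 without it and the other libraries that stood apart (adjusted p = 0.572).

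Over all times 1 of 6 members was called in lungs, miR-449a-5p, lower by -0.99 (SE 0.29, adjusted p = 0.00587), beside 33.7% of all miRNAs. Without the libraries of FP91 to FP96 and FPB2 it was not called (-0.24, adjusted p = 0.774), nor without FP38 as well (-0.14, adjusted p = 0.799). For dose 3 members were called (34.5% of all miRNAs), miR-34b-3p (adjusted p = 0.00959), miR-449a-5p (adjusted p = 0.019) and miR-34c-3p (adjusted p = 0.0203). Doses nearly follow the sets of mouse numbers, and with a term for the sets none of the 3 was called for dose (0.539% of all miRNAs). For time 0 members were called (1.35%) and for dose × time 0 (9.43%). Within the mice FP59 to FP88, 0 of 6 members were called (2.43%), and 2 passed an unadjusted p under 0.05. There miR-449a-5p averaged 219 ± 91.0 in 9 LD50 lungs and 150 ± 62.5 in 10 sham lungs, a log2 difference of 0.54 (SE 0.24, adjusted p = 0.303), and miR-34b-3p averaged 119 ± 21.2 and 147 ± 19.5 in the same groups (-0.31, adjusted p = 0.183).

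**Figure D4:**
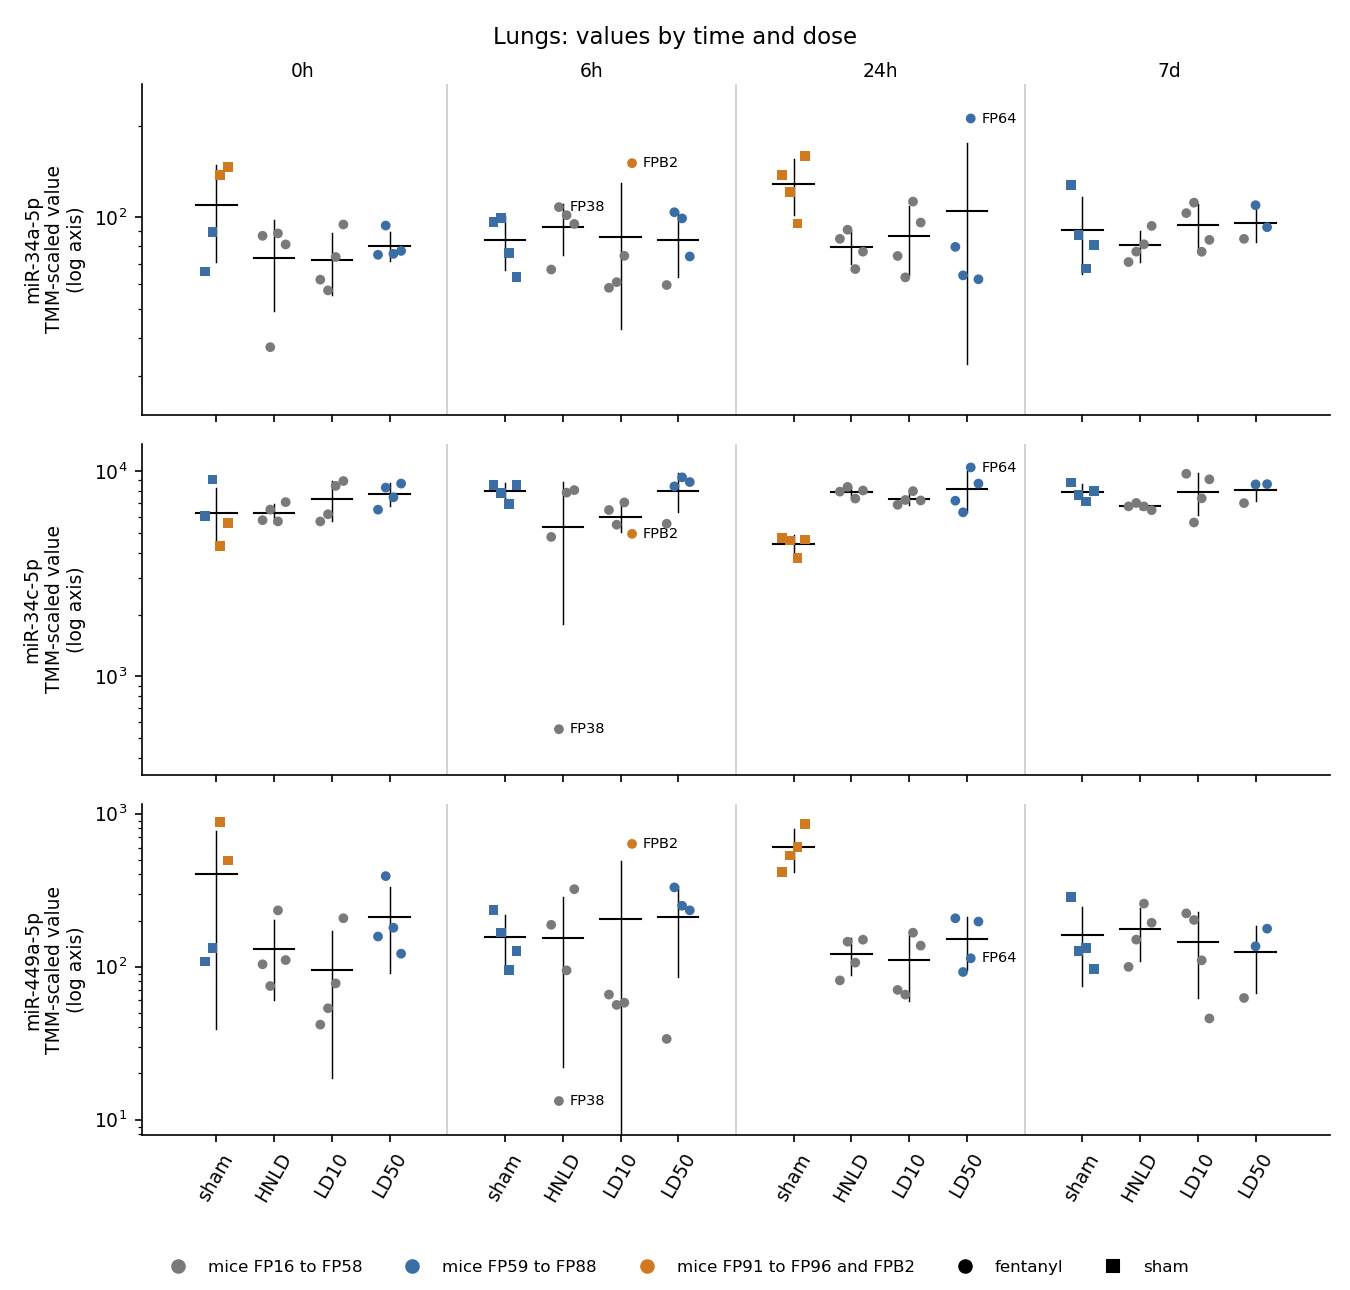
Values of miR-34a-5p, miR-34c-5p and miR-449a-5p in lungs by time and treatment on log axes, drawn as for cortex, with 1 point per mouse (circles fentanyl, squares sham) coloured by set of mouse numbers, means and 1 SD. At 24h all 4 sham points belong to FP91 to FP94 and lie at 417 to 855 for miR-449a-5p and at 3784 to 4730 for miR-34c-5p, and FPB2 at 6h lies with them for miR-449a-5p (634).

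The ratio of miR-34c-5p to miR-34a-5p was compared between fentanyl and sham in 12 pairs of tissue and time, by a two-sided exact permutation test on log2 ratios. It was past the threshold only in lungs at 24h, at a mean log2 ratio of 6.49 ± 0.38 in fentanyl mice (n = 12) and 5.12 ± 0.20 in sham mice (n = 4), a difference of 1.37 (exact p = 0.0011, adjusted over the 12 pairs 0.0132). The ratio itself was 29.2 to 39.8 in these 4 sham lungs and 31.5, 38.2 and 32.9 in FP95, FP96 and FPB2, the other 3 lungs of the set. Without any 1 of FP91 to FP94 the difference was 1.28 to 1.43 and the adjusted exact p 0.0527, which is the smallest that 12 lungs against 3 allow over 12 pairs. In the other 11 pairs the adjusted exact p was 0.259 or more, and the differences ran from -0.90 in cortex at 6h to 1.03 in heart at 6h.

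Within sets of mouse numbers, the correlation of miR-34c-5p with miR-204-5p passed the test only in cortex, and that with miR-200b-3p only in heart. Differences between tissues were not tested. The correlations were computed on log2(value + 1) with permutation tests, over 15 pairs of tissue and partner, and they are given within the sets of mouse numbers FP16 to FP58 and FP59 to FP88. In cortex miR-34c-5p went with miR-204-5p, an abundant miRNA of the choroid plexus, at r = 0.73 (rho = 0.68) in 32 libraries of FP16 to FP58 and r = 0.67 (rho = 0.58) in 23 of FP59 to FP88, all without the libraries that stood apart (permutation p of r 1e-05 and 0.00043, adjusted 3.75e-05 and 0.00323; of rho 5e-05 and 0.00435, adjusted 0.000375 and 0.0163). Without the 2 libraries farthest from the median of miR-34c-5p, r was 0.63 and 0.60. In the same sets r with miR-204-5p was 0.23 and -0.11 in heart and 0.02 and -0.37 in lungs, and none of these passed. Over all 63 cortex libraries r was -0.06 and rho 0.57, and over the 60 without FP24, FP85 and FP96 r was 0.75 and rho 0.65. FP85 and FP96 had 72.9 and 62.5 of miR-204-5p, against 3494 to 14184 in the 61 others.

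In heart miR-34c-5p went with miR-200b-3p, of the epithelial miR-200 family. r was 0.74 (rho = 0.57) in 32 libraries of FP16 to FP58 without FP38 and 0.60 (rho = 0.65) in 24 of FP59 to FP88 (permutation p of r 1e-05 and 0.00239, adjusted 3.75e-05 and 0.00717; of rho 0.00069 and 0.001, adjusted 0.00207 and 0.005). Without the 2 farthest libraries r was 0.63 and 0.42. In the same sets r with miR-200b-3p was -0.23 and -0.09 in cortex and 0.29 and -0.17 in lungs, and none of these passed. Over all 64 hearts r was 0.75 and rho 0.53. The 4 hearts rich in miR-34c-5p at 0h had 69.6 (FP30), 34.1 (FP32), 46.2 (FP20) and 61.0 (FP21) of miR-200b-3p, against 7.59, 11.8, 5.01 and 14.2 in the sham hearts of that time. The other fentanyl hearts of 0h had 5.63 (FP48) to 39.3 (FP74), so that of the LD50 mouse FP74 lies above FP32. The part of epithelial RNA in the miR-34c-5p of these hearts was not tested.

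No relation between miR-34c-5p and miR-34a-5p passed the test in cortex or heart. Their r was 0.03 and -0.04 in FP16 to FP58 and FP59 to FP88 in cortex (rho -0.04 and 0.24, adjusted permutation p of r 0.918 and 0.858), and -0.18 and 0.06 in heart (rho -0.32 and 0.03, adjusted permutation p 0.401 and 0.83). In lungs it was 0.41 and 0.62 (rho 0.45 and 0.48, permutation p of r 0.0195 and 0.00111, adjusted 0.0418 and 0.00435), and 0.35 and 0.57 without the 2 farthest libraries. For rho the adjusted permutation p was 0.0278 and 0.0532, so that of FP59 to FP88 did not pass, and over all 63 lungs r was -0.10 and rho 0.07. By contrast miR-34c-5p and miR-34b-5p, from 1 transcript, had an r of 0.68 and 0.72 in cortex, 0.90 and 0.41 in heart and 0.85 and 0.63 in lungs, and the lowest of these did not pass (adjusted permutation p 0.126, the others up to 0.00435). With miR-449a-5p the r was -0.04 and 0.17 in cortex, 0.42 and 0.34 in heart and 0.19 and 0.36 in lungs, and only that of 0.42 passed (adjusted permutation p 0.0418), while its rho of 0.33 did not (adjusted permutation p 0.149). Any reads that miR-34c-5p and miR-34b-5p share through mismatches in alignment would also enter their r, and were not measured.

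**Figure D5:**
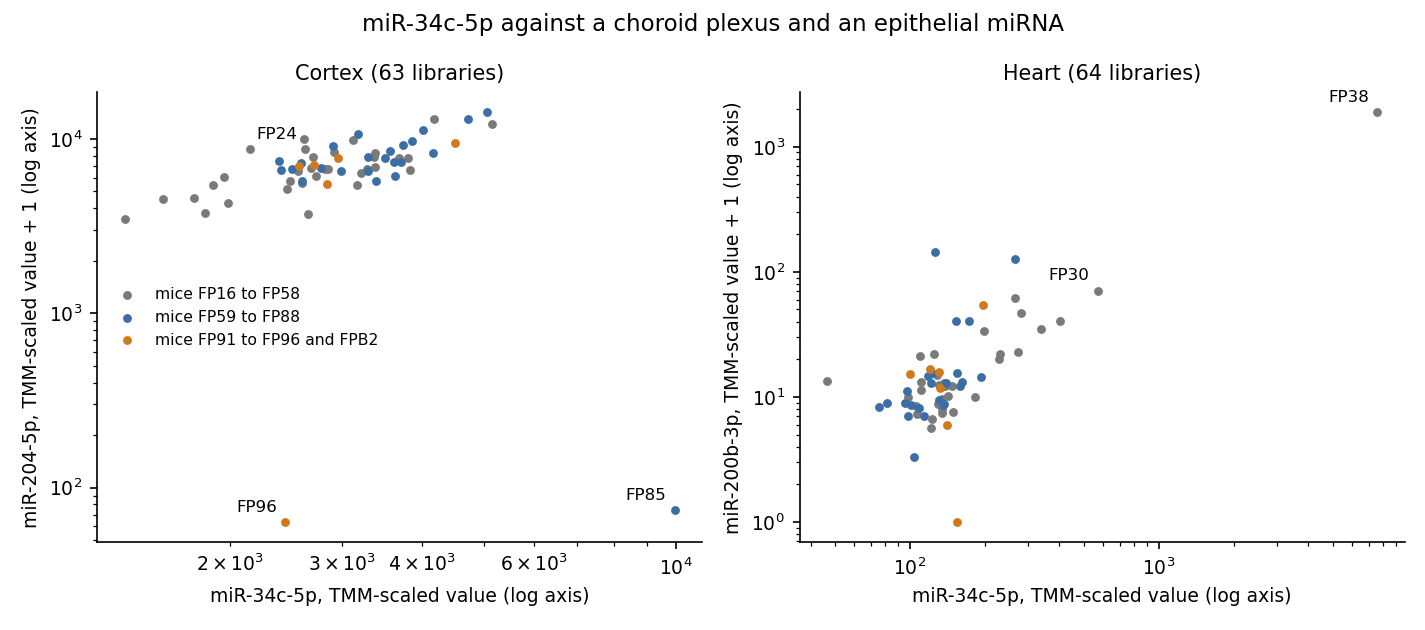
miR-34c-5p on the x axis against miR-204-5p in cortex (left) and miR-200b-3p in heart (right), as TMM-scaled values on log axes, 1 point per library, coloured by set of mouse numbers. In cortex FP85 and FP96 lie below the other 61 libraries at 72.9 and 62.5 of miR-204-5p, and in heart FP38 lies at 7558 of miR-34c-5p, away from the rest.

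For miR-34c-5p and miR-34a-5p, the miRNAs of other loci with the highest Spearman's rho over all libraries of a tissue are given as a description, leaving out the 7 members and the other arms of their hairpins. Among the members, miR-34b-5p had a rho of 0.64, 0.65 and 0.85 with miR-34c-5p in cortex, heart and lungs. For miR-34c-5p in cortex they were miR-1298-5p (rho = 0.62), miR-448-3p (0.59) and miR-204-5p (0.57), which were all 3 on the choroid plexus list. For miR-34a-5p in cortex they were let-7g-3p (0.76), miR-185-5p (0.72) and miR-219a-5p (0.71), the last a miRNA of oligodendrocytes. In heart miR-34c-5p had miR-205-5p (0.62), miR-92b-3p (0.61) and miR-375-3p (0.58), of which miR-205-5p and miR-375-3p are known from epithelia, and miR-34a-5p had miR-24-3p (0.53), miR-133b-3p (0.48), a muscle miRNA, and miR-218-5p (0.45). In lungs miR-34c-5p had miR-99a-3p (0.69), miR-1298-5p (0.65) and miR-181a-5p (0.64), which fell to 0.55, 0.48 and 0.48 in the 55 lungs without FP38, FP91 to FP96 and FPB2. Although on the choroid plexus list, miR-1298-5p had a median of 432 in these 55 lungs. It also stood at 1043 and 754 in the libraries labelled cortex of FP96 and FP85. miR-34a-5p in lungs had miR-146b-5p (0.66), miR-30e-5p (0.65) and miR-146a-5p (0.62).

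Other p53-linked miRNAs were measured beside miR-34a-5p, as a list of 6 (miR-192-5p, miR-194-5p, miR-215-5p, miR-107-3p, miR-143-3p and miR-145a-5p). All 6 passed the filter in each tissue, and 0 were called in cortex or heart for the mean of the doses at any time. In lungs 1 was called at 0h (13.7% of all miRNAs) and over all times (33.7%), miR-107-3p, higher by 0.41 and 0.32, and 0 at 6h and 7d. Without the lungs of FP91 to FP96 and FPB2, 0 of the 371 miRNAs were called at 0h, so that call was lost. At 24h 3 of the 6 were called, 2 higher and 1 lower, against the sham lungs of FP91 to FP94, a share near the 46.1% of all miRNAs. miR-194-5p averaged 151 ± 31.6 in fentanyl lungs (n = 12) and 342 ± 55.7 in sham lungs (n = 4), lower by -1.19 on the log2 scale (adjusted p = 9.39e-07). miR-107-3p averaged 552 ± 52.1 and 352 ± 70.2 (0.66, adjusted p = 5.21e-05), and miR-192-5p averaged 1967 ± 268 and 1275 ± 109 (0.62, adjusted p = 0.00209), in the same groups. The p53-linked miRNAs did not move in 1 direction there, with a median log2 difference of 0.26 over the 6, against 0.20 over all miRNAs.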

How the data were processed

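The deposited tables hold 1 signal value per mature miRNA and library. The authors made TruSeq small RNA libraries, read 50 bases on a NextSeq 500, checked and trimmed the reads, aligned them with Bowtie 1.0.0 to mature sequences of miRBase v21 (mm9) and scaled library sizes by TMM in edgeR. Libraries were pooled for sequencing, and each has its own column. Divided by what a single read is worth, 100% of 35680 low values in cortex, 27214 in heart and 31516 in lungs came out whole within 0.1, so reads could be recovered. Bowtie allowed mismatches, so near-identical members may share reads, and miR-449a-5p and miR-449c-5p are uncertain in this respect. The sequence of miR-34c-5p was not found and could not be compared with the others. How many reads miR-34b-5p may share with the far more abundant miR-34c-5p is therefore not known.

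Groups came from the labels. The column of FP91 in the heart table names LD10, while its label gives sham at 24h, and the label was followed. limma 3.58.1 (R 4.3.3) was fitted per tissue to log2(value + 1) with 16 group means, on miRNAs that reached 10 in 4 or more libraries, with Benjamini-Hochberg adjustment over all of them. A fold change on the log2(value + 1) scale understates the change of low miRNAs. The model was also run on simulated counts with known changes. These held no mislabelled libraries and no differences between mouse number sets, so they cannot show whether calls that hinge on either are sound. Ratios were compared by exact permutation tests (scipy 1.17.1), and correlations by permutation tests with 100000 resamples. Alternatives were pseudocounts of 0.25 and 4, no filter, RLE scaling, edgeR 4.0.16 and DESeq2 1.42.0 on the recovered reads, a term for the mouse number sets, and fits without single libraries or without those that stood apart.

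Named besides the members were the 3 miRNAs nearest in rho to miR-34c-5p and to miR-34a-5p in each tissue, and those called in the lists of other arms and p53-linked miRNAs. The members and lists were chosen with earlier results of these data known. Some libraries and the 4 hearts rich in miR-34c-5p at 0h were singled out after their values were seen. Replicates are separate mice.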

Additional observations from a re-analysis of the deposited data

Results flagged for a closer look

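In groups of 4 libraries, the highest or lowest value of miR-34a-5p, miR-34c-5p or miR-449a-5p was tested for standing far from the other 3 on the log2 scale. Of 138 groups 10 held such a value, and chance gives about 1 in 20 groups. In cortex, miR-34a-5p was 76.3 in the LD50 mouse FP73 at 6h, with the other 3 at 138 to 151. miR-449a-5p in cortex was 6.96 in the LD10 mouse FP41 at 7d (others 8.90 to 9.03) and 393 in the library labelled cortex of the sham mouse FP85 at 6h (others 4.11 to 9.19). In heart, miR-34a-5p was 49.9 in the LD50 mouse FP59 at 7d (others 32.0 to 34.0). miR-34c-5p in heart was 46.6 in the HNLD mouse FP24 at 7d (others 130 to 139), the mouse whose cortex library held the highest miR-34a-5p.

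In lungs, miR-34a-5p was 37.3 in the HNLD mouse FP30 at 0h (others 81.3 to 88.3) and 93.7 in the LD50 mouse FP69 at 0h (others 75.1 to 77.4). miR-34c-5p was 3784 in the sham mouse FP93 at 24h (others 4590 to 4730). miR-449a-5p was 634 in the LD10 mouse FPB2 at 6h (others 56.2 to 65.6) and 33.6 in the LD50 mouse FP29 at 6h (others 233 to 329). FP29 is 1 of only 2 LD50 lungs of the mice FP16 to FP58, and the other of these had 62.3 of miR-449a-5p.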

How the results depend on the processing

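No paired analysis was possible because each mouse stands in 1 group of a tissue, so the groups compared within a tissue share no mouse. Over the single members, 803 values under other settings kept their side of the threshold, 56 of them with the opposite sign, 43 gained a call, 24 lost one and 6 reversed. The 6 that reversed came with a term for the mouse number sets in lungs, where FPB2 is the only fentanyl library of the last set. miR-449a-5p became 1.03 at 24h, 1.63 at HNLD 24h, 1.42 at LD10 24h, 0.04 at LD50 24h and 1.05 over all times, and miR-34a-5p became 0.55 at 24h, and none of these was called.

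edgeR and DESeq2 each called 5 in cortex at 6h (limma 0), 3 over all times (limma 0) and 5 at HNLD 6h (limma 2), and 2 in heart at HNLD 6h (limma 1). In that heart comparison they called 7.19% and 9.69% of all miRNAs. In lungs each called 1 at 0h (limma 0), beside 15.4% and 15.9% of all miRNAs, and 3 over all times (limma 1), beside 33.7% by each. At LD50 24h in lungs each called 1 (limma 2), beside 29.6% and 28.0%. At HNLD 24h in lungs edgeR called 2 and DESeq2 3 (limma 1), beside 34.8% of all miRNAs by each. At HNLD 6h DESeq2 called 1 (limma 0), beside 12.9%. edgeR called 1 for dose in cortex (13.7% of all miRNAs), and 2 for dose (0.625%) and 1 for dose × time (3.44%) in heart (limma 0 each). DESeq2 gave no such terms. Over all miRNAs edgeR and DESeq2 called 97 and 75 in cortex at 0h, 100 and 100 at 6h, 110 and 93 over all times and 82 and 84 at HNLD 6h, against 0, 0, 8 and 3 by limma, and in lungs at HNLD 6h 42 and 48 against 1. In heart at 24h they called 6 and 10 against 0. The cause was not tested.

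Without the libraries that stood apart, the count was 0 in cortex and in heart at HNLD 6h, where 0 of all miRNAs were called. In lungs over all times it was 0, also without FP38, while 20 of the 371 miRNAs were called with FP38 kept. With the term for mouse number sets the count was 0 in these 3 and 0 in lungs at 24h, at each dose of 24h and for dose. At most 0.539% of all miRNAs were called in any of these comparisons. RLE gave 2 in heart at HNLD 6h (25 of all 320 miRNAs). In lungs it gave 2 at 24h (154 of all 371 miRNAs), 3 over all times (120) and 3 at HNLD 6h (11). It gave 2 at HNLD 24h (134) and 1 at LD50 24h (107) there. With no filter, which tests all 7 members, the count was 0 in heart at HNLD 6h, and in lungs 1 at 24h, 1 for dose and 0 at LD50 24h. A pseudocount of 4 gave 2 in heart at HNLD 6h. The shares of all miRNAs called with no filter and with this pseudocount are not given, so these counts are a description only. In lungs no value at 24h could be had without the libraries that stood apart.

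Leaving out 1 library at a time, the number of members called ranged in cortex from 0 to 1 at 0h (1 without FP85), 0 to 5 at 6h, 0 to 2 over all times and 0 to 5 at HNLD 6h, and in heart from 0 to 2 at HNLD 6h. In lungs it ranged from 0 to 1 at 0h (1 without FP87), 2 to 4 at 24h, 1 to 2 over all times, 0 to 1 for dose × time, 0 to 4 at HNLD 6h, 1 to 2 at HNLD 24h and at LD10 24h, and 0 to 3 at LD50 24h. The share of all miRNAs called in each of these fits is not given, so the ranges are a description only. In cortex the calls at 6h appeared without FP77, FP78, FP86 or FP96, and the log2 ratio of miR-34c-5p to miR-34a-5p in lungs at 24h ranged from 1.28 to 1.45. At low depth in heart, where 1 read was worth up to 3.961, miR-449a-5p, miR-449c-5p and both 3p arms rest on a few reads.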
